A study of Mus musculus with 78 samples.

Results

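A set of 10 immediate early genes was followed in cerebral arteries of mice: Fos, Fosb, Jun, Junb, Egr1, Atf3, Nr4a1, Nr4a3, Npas4 and Ier5. They were chosen by name among the protein-coding genes of the expression table, with earlier results of these data known, which made 10 of 54532 genes. All came from male wild-type C57Bl6 mice. Before surgery the mice fed ad libitum (AL) or were kept on intermittent fasting (IF) for 3 months. Surgery was bilateral common carotid artery stenosis (BCAS) or a sham procedure. Stenosis narrows both neck arteries that feed the brain, which leaves it with less blood for weeks. Arteries were taken 1, 7, 14, 21 or 30 days later, which made 20 groups of 3 or 4 libraries and 78 libraries in all. Fed mice with stenosis on day 1 and fasted sham mice on day 7 had 3 libraries. The treatment text leaves out day 7 and the design text counts 4 time points, so day 7 rests on the group labels. The sources used here give neither the hours of fasting nor the hour of collection. Nothing in the labels says that libraries came from separate animals, so p-values measure only the spread between these libraries. Library titles carry running numbers over all groups, not replicate numbers. Replicate numbers here thus only name libraries, in the order of their records within a group.

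Immediate early genes are transcribed within minutes of a stimulus, without new protein synthesis, because the factors that switch them on are already in the cell. Mitogen, stretch, calcium and stress signals reach them through kinases that act on factors such as serum response factor and CREB. Their messages are short-lived. Most of their proteins bind DNA and set a second wave of transcription: Fos, Fosb, Jun and Junb pair into the AP-1 factor, Atf3 is a stress-induced partner of Jun proteins, Egr1 is a zinc finger factor, Nr4a1 and Nr4a3 are orphan nuclear receptors, and Npas4 is a calcium-dependent factor best known from neurons. Ier5 differs from the others in that its protein is known as a regulator of heat shock factor 1 and of protein phosphatase 2A rather than as a DNA-binding factor. In blood vessels these genes are known for their answer to injury and to changes in flow.

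The promoter windows show which letters of known early response sites lie before the start of these genes. RefSeq entries on GRCm38.p6 were matched for 9 of the 10 genes, all but Egr1. Those of 6 genes are printed, each as the 250 bases before the RefSeq start, 5′ to 3′ on the gene's strand. For Fos, Jun, Npas4 and Ier5 that start is also the start in the gene coordinates of the expression table, whereas for Atf3 and Nr4a1 it lies 34706 and 12577 bases inside the gene, at another start. Capitals mark TGACG on either strand (CGTCA on the other), which is the core of the site that CREB and ATF proteins bind, and in Jun a GAANNTTC, a pair of heat shock element units.
Ier5: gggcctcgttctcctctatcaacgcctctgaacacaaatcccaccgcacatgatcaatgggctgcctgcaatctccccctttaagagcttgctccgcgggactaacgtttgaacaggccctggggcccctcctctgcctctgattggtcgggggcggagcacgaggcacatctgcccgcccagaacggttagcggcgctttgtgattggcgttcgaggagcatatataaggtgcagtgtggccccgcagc
Npas4: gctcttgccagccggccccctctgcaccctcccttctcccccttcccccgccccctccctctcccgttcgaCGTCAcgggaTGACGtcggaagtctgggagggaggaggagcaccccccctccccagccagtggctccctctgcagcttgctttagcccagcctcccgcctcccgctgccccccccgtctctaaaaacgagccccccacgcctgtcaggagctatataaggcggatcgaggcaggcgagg
Atf3: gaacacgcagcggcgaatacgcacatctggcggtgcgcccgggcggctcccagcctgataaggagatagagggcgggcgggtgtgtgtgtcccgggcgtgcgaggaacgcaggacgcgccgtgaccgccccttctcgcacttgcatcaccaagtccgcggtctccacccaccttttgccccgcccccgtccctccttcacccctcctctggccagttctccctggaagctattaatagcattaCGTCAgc
Jun: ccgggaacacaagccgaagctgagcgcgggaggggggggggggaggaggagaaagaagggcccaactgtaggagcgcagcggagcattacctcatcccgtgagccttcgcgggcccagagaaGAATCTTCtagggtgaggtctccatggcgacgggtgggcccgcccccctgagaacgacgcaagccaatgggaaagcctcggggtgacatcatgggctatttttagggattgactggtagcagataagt
Nr4a1: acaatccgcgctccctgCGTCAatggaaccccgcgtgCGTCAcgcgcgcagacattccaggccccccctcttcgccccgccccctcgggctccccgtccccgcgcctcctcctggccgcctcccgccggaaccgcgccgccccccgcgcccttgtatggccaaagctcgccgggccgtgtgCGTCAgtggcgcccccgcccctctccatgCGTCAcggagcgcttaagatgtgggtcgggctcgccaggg
Fos: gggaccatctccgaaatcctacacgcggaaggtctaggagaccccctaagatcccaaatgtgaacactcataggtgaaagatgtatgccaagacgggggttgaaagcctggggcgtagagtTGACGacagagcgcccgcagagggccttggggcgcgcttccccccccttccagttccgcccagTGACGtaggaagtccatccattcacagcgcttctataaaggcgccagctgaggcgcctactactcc

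These windows lie at chr1:155099637-155099886 (minus strand) for Ier5, chr19:4989972-4990221 (minus) for Npas4, chr1:191183334-191183583 (minus) for Atf3, chr4:95052223-95052472 (minus) for Jun, chr15:101266596-101266845 (plus) for Nr4a1 and chr12:85473640-85473889 (plus) for Fos. The first base of the match was 179 and 169 bases before the start in Npas4, 7 in Atf3, 233, 213, 69 and 40 in Nr4a1, 129 and 66 in Fos, and 128 in Jun. On either strand TGACG was found in 7 of the 9 windows, all but Ier5 and Jun, against 17.7% of 32817 mouse promoter windows of the same length. The whole palindrome TGACGTCA, which contains TGACG on both strands, was in 0 of the 9 (1.55% of all windows). The AP-1 letters TGANTCA were in 0 (6.75%), the Nr4a letters AAAGGTCA in 0 (1.34%), the CArG box of serum response factor in 0 (1.47%), and the Egr letters GCGNGGGCG in 2, Fosb and Nr4a1 (4.7%). GAANNTTC was in Jun alone (6.69%), and TATAAA on the reading strand was in Fos alone, 33 bases before its start (7.6%). A match of letters is a description and does not show that a protein binds.

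Library depth lay between 14601572 and 25944175 fragments, and 12586 to 13449 genes reached 1 FPKM (fragments per kilobase of gene, scaled to depth). Markers of the artery wall were high in every library, with 5 smooth muscle genes summing to 2063 to 8623 FPKM and 5 endothelial genes to 460 to 978 FPKM. The 7 neuronal markers summed to 1.3 to 15.01 FPKM. Markers of other tissue were uneven between libraries. The pituitary hormone gene Gh ran from 0.366 to 4974 FPKM and the hemoglobin gene Hbb-bs from 11.7 to 1593. Among glial markers, Mbp of oligodendrocytes ran from 1.89 to 102 FPKM and Gfap of astrocytes from 23.0 to 76.7. In 3 libraries (sham AL day 7 replicates 2 and 4, and BCAS AL day 1 replicate 2) genes under 300 bases took 0.279% to 0.322% of fragments, against 0.0563% to 0.106% in the others. Bulk arteries mix cell types, so fewer cells of a type and less RNA per cell cannot be told apart.

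All 10 genes were detected in all 78 libraries and passed the filter of 1 FPKM in 3 libraries. Junb had the highest level, with a median of 28.1 FPKM over the 78 libraries and a range of 17.5 to 70.0. Jun followed at 18.5 FPKM (9.88 to 46.2), Ier5 at 15.9 (7.90 to 29.3), Nr4a1 at 14.4 (6.36 to 71.4) and Egr1 at 12.6 (7.67 to 48.5). Levels were lower for Fos at 5.39 FPKM (2.01 to 37.8), Atf3 at 4.21 (1.69 to 49.7), Nr4a3 at 2.42 (0.950 to 15.2) and Npas4 at 2.15 (0.774 to 4.35). Fosb was lowest at 0.340 FPKM (0.103 to 2.85), reached 1 FPKM in 5 libraries, and rested on 10 to 383 fragments per library. The ratio of the highest to the lowest library ran from 3.72 for Ier5 to 29.5 for Atf3.

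**Figure D1:**
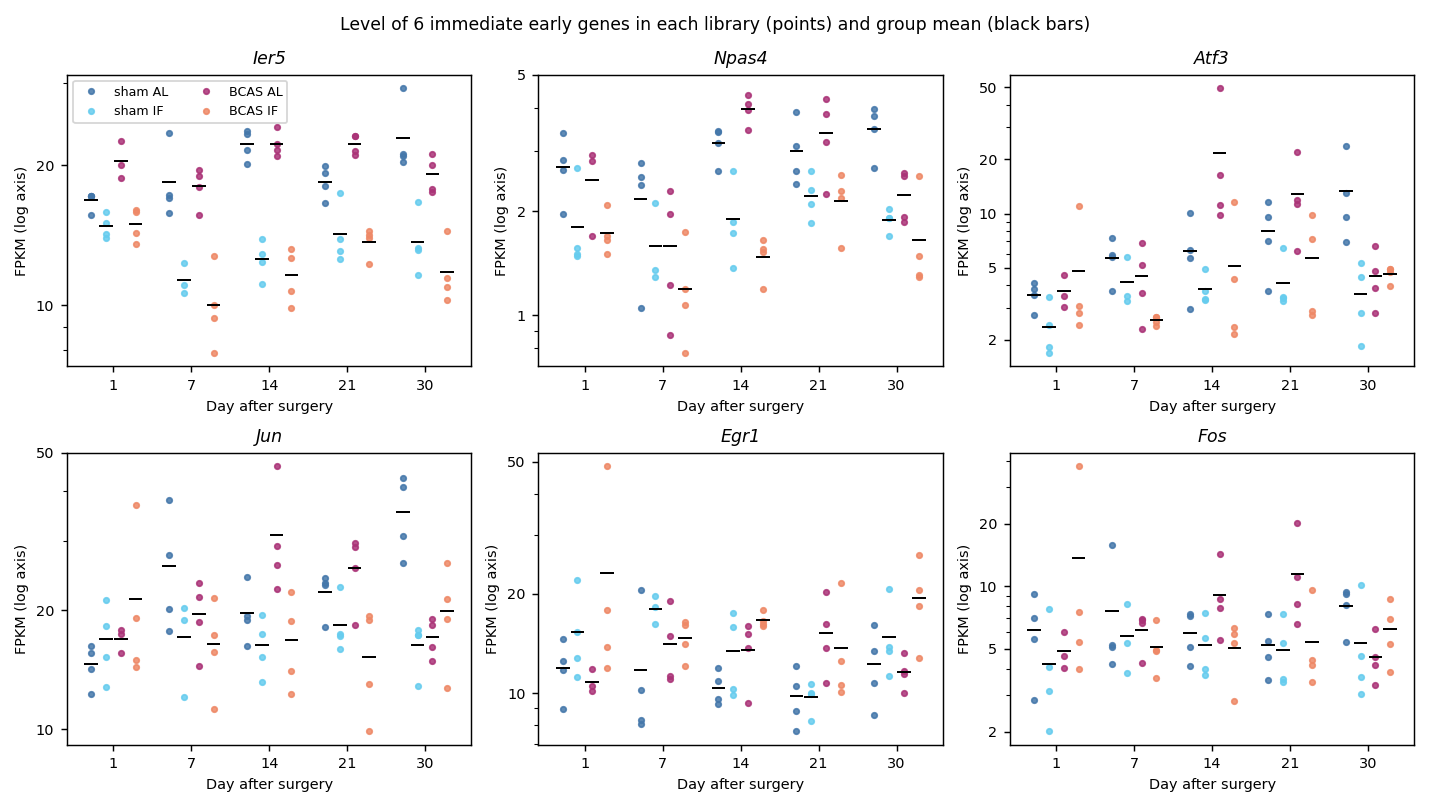
FPKM of Ier5, Npas4, Atf3, Jun, Egr1 and Fos (log axis) against day after surgery, one point per library in 4 colours for surgery and diet, with black bars for group means. Ier5 separates by diet in most columns, whereas Fos and Egr1 show single high libraries such as the 37.8 and 48.5 FPKM of one BCAS IF library on day 1.

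Across the 20 groups, 8 of the 10 genes differed by limma's F test at an adjusted p under 0.05, against 42.7% of the 15707 genes tested. Ier5 had the 15th smallest p of all (adjusted p = 1.63e-16), followed among these genes by Npas4 (3.12e-08), Atf3 (1.14e-05), Jun (0.000296), Nr4a3 (0.00125), Junb (0.00256), Nr4a1 (0.00318) and Egr1 (0.0206). Fos and Fosb did not pass, with adjusted p of 0.248 and 0.729. The groups thus held 86.4% of the variance of Ier5 on the log2(FPKM + 1) scale, 70.6% for Npas4 and 61.8% for Atf3, but 30.4% for Fos and 21.0% for Fosb. The median over all genes was 37.3%. With 20 means fitted to 78 libraries, part of such a share arises without any difference between groups.

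Fasting was the factor with the clearest change. As the mean of the 5 daily differences in sham mice, Ier5, Npas4, Atf3, Jun and Nr4a3 fell and Egr1 rose, so 6 of 10 passed against 23.7% of all genes. After BCAS, Ier5, Npas4, Atf3 and Jun fell and Egr1 rose, so 5 of 10 passed against 23.1%. Because the 10 genes were chosen with earlier results of these data known, an excess over all genes is a description and not a test. By direction, 11.9% of all genes were lower and 11.8% higher in sham, and 11.9% and 11.2% after BCAS. The median log2 change of the 10 genes was -0.41 in sham and -0.29 after BCAS, with 0.01 and 0.00 over all genes tested.

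Ier5 fell most firmly. Its mean level was 19.7 ± 3.42 FPKM (SD, n = 20) in fed sham mice and 13.4 ± 1.86 (n = 19) in fasted ones. After BCAS it was 20.4 ± 2.24 (n = 19) under AL and 12.4 ± 2.25 (n = 20) under IF. All 10 fasted groups had lower means than all 10 freely fed groups.

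In time order (days 1, 7, 14, 21 and 30) the group means of Ier5 in sham AL were 16.8 ± 0.773, 18.4 ± 3.48, 22.2 ± 1.65, 18.4 ± 1.48 and 22.9 ± 4.29 FPKM. Sham IF had 14.8 ± 0.860, 11.3 ± 0.867, 12.6 ± 1.15, 14.2 ± 2.19 and 13.7 ± 2.14 FPKM. Ordered from low to high, the 20 means gave 19 neighbouring pairs, and in 18 of them the gap was smaller than the larger of both SDs. The exception was the step from the highest fasted group to the lowest fed one. BCAS AL had 20.4 ± 1.94, 18.0 ± 1.74, 22.2 ± 1.44, 22.2 ± 1.09 and 19.1 ± 1.75 FPKM, and BCAS IF 14.9 ± 1.20, 10.01 ± 2.03, 11.6 ± 1.58, 13.7 ± 0.977 and 11.8 ± 1.86.

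The log2 change of Ier5 under fasting was -0.53 ± 0.05 (SE) in sham (adjusted p = 7.96e-13), a ratio of 0.693, and -0.69 ± 0.05 after BCAS (adjusted p = 1.61e-17), a ratio of 0.621. On day 14 the sham AL libraries read 20.1, 21.6, 23.3 and 23.7 FPKM and the sham IF libraries 11.1, 12.4, 12.9 and 13.9. On the same day after BCAS the AL libraries read 20.9, 21.6, 22.3 and 24.2 FPKM and the IF libraries 9.86, 10.7, 12.6 and 13.2. Each fasted library of both pairs lay below each fed one. Fed and fasted libraries of Ier5 did not overlap on days 7, 14 and 30 in sham or on any of the 5 days after BCAS, a separation that 8.89%, 11.9% and 12.1% of genes showed in sham and 18.2%, 8.53%, 12%, 8.73% and 8.66% in time order after BCAS.

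Npas4 was at a low level but changed in the same direction on all 5 days in both arms. It read 2.90 ± 0.703 FPKM (SD, n = 20) in sham AL, 1.90 ± 0.434 (n = 19) in sham IF, 2.74 ± 1.04 (n = 19) in BCAS AL and 1.64 ± 0.480 (n = 20) in BCAS IF. The log2 change was -0.43 ± 0.08 in sham (adjusted p = 1.42e-05) and -0.46 ± 0.08 after BCAS (adjusted p = 2.48e-06). The gap was widest on day 14 after BCAS, where AL libraries read 3.46, 3.94, 4.12 and 4.35 FPKM and IF libraries 1.19, 1.52, 1.55 and 1.65, without overlap. There it fell by 1.003 ± 0.17 on the log2 scale (adjusted p = 2.70e-05). These levels rest on 52 to 319 fragments of Npas4 per library.

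The 20 group means of Npas4 ran from 1.19 ± 0.406 FPKM in BCAS IF day 7 to 3.97 ± 0.379 in BCAS AL day 14, and 9 of the 10 lowest were fasted groups. No gap between neighbours in that order was larger than the larger of their SDs. In time order, sham AL had 2.69 ± 0.581, 2.18 ± 0.771, 3.16 ± 0.377, 3.01 ± 0.662 and 3.47 ± 0.573 FPKM and sham IF 1.81 ± 0.575, 1.59 ± 0.463, 1.90 ± 0.528, 2.22 ± 0.330 and 1.89 ± 0.140. BCAS AL had 2.47 ± 0.671, 1.59 ± 0.654, 3.97 ± 0.379, 3.38 ± 0.876 and 2.23 ± 0.385 FPKM and BCAS IF 1.74 ± 0.252, 1.19 ± 0.406, 1.48 ± 0.198, 2.15 ± 0.422 and 1.65 ± 0.594.

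Atf3 and Jun fell on average. The fasted mean of Atf3 was lower on 5 of 5 days in sham and 3 of 5 after BCAS, and that of Jun on 4 and 3. For Atf3 the mean was 7.35 ± 4.87 FPKM (SD, n = 20) in fed sham mice and 3.59 ± 1.3 (n = 19) in fasted ones, a log2 change of -0.73 ± 0.18 (adjusted p = 0.00159). After BCAS it was 9.76 ± 10.96 (n = 19) under AL and 4.56 ± 2.99 (n = 20) under IF, a log2 change of -0.66 ± 0.18 (adjusted p = 0.00427). On day 30 the sham AL libraries of Atf3 read 6.99, 9.60, 13.0 and 23.8 FPKM and the sham IF libraries 1.85, 2.80, 4.46 and 5.31. All 4 fed libraries were above all 4 fasted ones, and it fell by 1.58 ± 0.39 on the log2 scale (adjusted p = 0.00984). That call was lost without sham AL day 30 replicate 1 or sham IF day 30 replicate 4, with -1.27 and -1.81 as the extremes over the 8 libraries left out. On day 14 after BCAS, Atf3 read 9.86, 11.1, 16.3 and 49.7 FPKM under AL and 2.15, 2.34, 4.32 and 11.6 under IF, which overlapped in 1 fasted library, and fell by 1.84 ± 0.39 (adjusted p = 0.00152).

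In time order, group means of Atf3 in sham AL were 3.54 ± 0.587, 5.67 ± 1.498, 6.23 ± 2.90, 7.96 ± 3.35 and 13.3 ± 7.39 FPKM, against 2.34 ± 0.811, 4.18 ± 1.38, 3.83 ± 0.752, 4.13 ± 1.52 and 3.60 ± 1.57 in sham IF. BCAS AL had 3.71 ± 0.796, 4.50 ± 1.995, 21.8 ± 18.9, 12.8 ± 6.54 and 4.52 ± 1.63 FPKM, and BCAS IF 4.83 ± 4.15, 2.56 ± 0.147, 5.09 ± 4.42, 5.66 ± 3.47 and 4.64 ± 0.474. Fed groups spanned 3.54 to 21.8 FPKM, whereas fasted groups spanned 2.34 to 5.66.

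Jun read 23.5 ± 8.82 FPKM (SD, n = 20) in fed sham mice and 17.0 ± 2.95 (n = 19) in fasted ones, a log2 change of -0.39 ± 0.11 (adjusted p = 0.00446). After BCAS it read 22.3 ± 7.59 (n = 19) under AL and 18.0 ± 6.15 (n = 20) under IF, a change of -0.29 ± 0.11 (adjusted p = 0.0404), which no longer passed without 19 of the 39 single libraries and ranged from -0.34 to -0.24. Without day 7 it was -0.29 (adjusted p = 0.0535). On day 30 the sham AL libraries of Jun read 26.3, 30.9, 41.0 and 43.2 FPKM and the sham IF libraries 12.9, 17.3, 17.3 and 17.8. The groups stood well apart, and Jun fell by 1.05 ± 0.23 on the log2 scale (adjusted p = 0.00276). On day 14 after BCAS it read 22.6, 26.0, 29.0 and 46.2 FPKM under AL and 12.3, 14.0, 18.8 and 22.3 under IF, without overlap, and fell by 0.82 ± 0.23 (adjusted p = 0.0214). The last call was lost without BCAS AL day 14 replicate 3 (-0.62), BCAS IF day 14 replicate 1 or replicate 3.

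In time order the group means of Jun were 14.6 ± 1.76, 25.9 ± 9.12, 19.7 ± 3.38, 22.2 ± 2.75 and 35.4 ± 8.08 FPKM in sham AL and 16.9 ± 3.67, 17.1 ± 4.37, 16.3 ± 2.70, 18.4 ± 3.08 and 16.3 ± 2.32 in sham IF. BCAS AL had 16.9 ± 1.16, 19.6 ± 3.96, 31.0 ± 10.5, 25.6 ± 5.13 and 17.1 ± 1.91 FPKM and BCAS IF 21.4 ± 10.6, 16.4 ± 4.25, 16.8 ± 4.54, 15.3 ± 4.59 and 19.9 ± 5.66. The fasted sham groups lay within 16.3 to 18.4 FPKM, and the fed sham groups within 14.6 to 35.4.

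The nuclear receptors Nr4a1 and Nr4a3 were lower on average under fasting, with larger errors. Nr4a3 read 4.51 ± 3.39 FPKM (SD, n = 20) in fed sham mice and 2.65 ± 1.28 (n = 19) in fasted ones, a log2 change of -0.45 ± 0.14 (adjusted p = 0.0186). Without sham IF day 7 replicate 1, a library at 1.3 FPKM beside 4.73 and 5.26, the change was -0.35 and no longer passed. After BCAS, Nr4a3 read 3.07 ± 1.31 FPKM (n = 19) and 2.27 ± 0.824 (n = 20), a change of -0.29 ± 0.14 (adjusted p = 0.152). For Nr4a1 the changes were -0.46 ± 0.19 in sham (adjusted p = 0.0641) and -0.44 ± 0.19 after BCAS (adjusted p = 0.0832). On day 30 in sham, Nr4a1 read 19.4, 22.4, 52.2 and 71.4 FPKM under AL and 8.27, 12.4, 13.4 and 18.8 under IF, without overlap, and fell by 1.43 ± 0.41 (adjusted p = 0.0280). That call was lost without sham AL day 30 replicate 1 (-1.10), sham AL day 30 replicate 4, sham IF day 30 replicate 3 or sham IF day 30 replicate 4.

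Egr1 went the other way. It read 11.2 ± 3.13 FPKM (SD, n = 20) in fed sham mice and 14.1 ± 4.13 (n = 19) in fasted ones, a log2 change of 0.31 ± 0.12 (adjusted p = 0.0466). After BCAS it read 13.1 ± 3.06 (n = 19) under AL and 17.5 ± 8.31 (n = 20) under IF, a change of 0.34 ± 0.12 (adjusted p = 0.0295). Fasted means were higher on 4 of the 5 days in each arm. On day 14 after BCAS the AL libraries read 9.35, 13.7, 15.1 and 15.9 FPKM and the IF libraries 15.9, 16.1, 16.5 and 17.8, just apart. Without day 7, which the treatment text leaves out, the sham change was 0.22 (adjusted p = 0.247) and no longer passed. Both calls were close to the threshold: the sham call was lost without 24 of the 39 single libraries (0.27 to 0.36), and the BCAS call without 5, namely replicate 2 of BCAS AL on days 14 and 21 and, of BCAS IF, replicate 1 of day 1, replicate 3 of day 21 and replicate 2 of day 30 (lowest 0.25).

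Fos, Fosb and Junb, all AP-1 subunits, did not pass under fasting. Fos read 6.60 ± 2.91 FPKM (SD, n = 20) in fed and 5.06 ± 2.15 (n = 19) in fasted sham mice, and 7.37 ± 4.05 (n = 19) and 7.09 ± 7.44 (n = 20) after BCAS. Junb stayed between 28.8 ± 6.55 FPKM in sham IF and 30.9 ± 8.06 in BCAS AL, and Fosb between 0.412 ± 0.254 and 0.504 ± 0.401 in the same arms. For Fos the log2 change was -0.31 (95% interval -0.66 to 0.04) in sham and -0.15 (-0.50 to 0.20) after BCAS. Intervals were narrower for Junb, at -0.24 to 0.13 and -0.30 to 0.06. Those of Fosb read -0.24 to 0.15 and -0.22 to 0.16, but it was below 1 FPKM in 73 of 78 libraries. At that level log2(FPKM + 1) shrinks changes, so these values do not bound its fold change more closely than that of Fos.

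The highest group mean of Fos, Fosb, Junb and Egr1 was BCAS IF day 1, at 13.7 ± 16.1, 0.925 ± 1.28, 47.4 ± 17.5 and 23.0 ± 17.2 FPKM. Replicate 1 of that group raised each of these means. Without it, a recomputation chosen after seeing the data, they were 5.64 ± 1.77, 0.283 ± 0.00590, 39.8 ± 10.8 and 14.5 ± 3.04 FPKM. Fos, Fosb and Egr1 then stood at places 10, 18 and 8 of the 20 groups, whereas Junb stood at place 2. The highest means were then BCAS AL day 21 for Fos (11.5 ± 6.01) and Fosb (0.847 ± 0.668), BCAS AL day 1 for Junb (41.9 ± 8.27) and BCAS IF day 30 for Egr1 (19.4 ± 5.51). The lowest with all libraries was sham IF day 1 for Fos (4.24 ± 2.48 FPKM), sham IF day 21 for Fosb (0.248 ± 0.0593) and Egr1 (9.71 ± 1.05), and BCAS IF day 21 for Junb (21.9 ± 5.43). Nr4a1 and Nr4a3 were highest in sham AL day 30, at 41.4 ± 24.9 and 7.97 ± 4.95 FPKM, and lowest at 11.2 ± 0.905 in sham AL day 1 and 1.38 ± 0.311 in sham IF day 1. Of the 19 neighbouring pairs in the order of group means, the gap passed the larger SD in 0 for Fos, Fosb, Jun, Junb, Egr1 and Nr4a1 and in 1 each for Atf3 and Nr4a3.

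**Figure D2:**
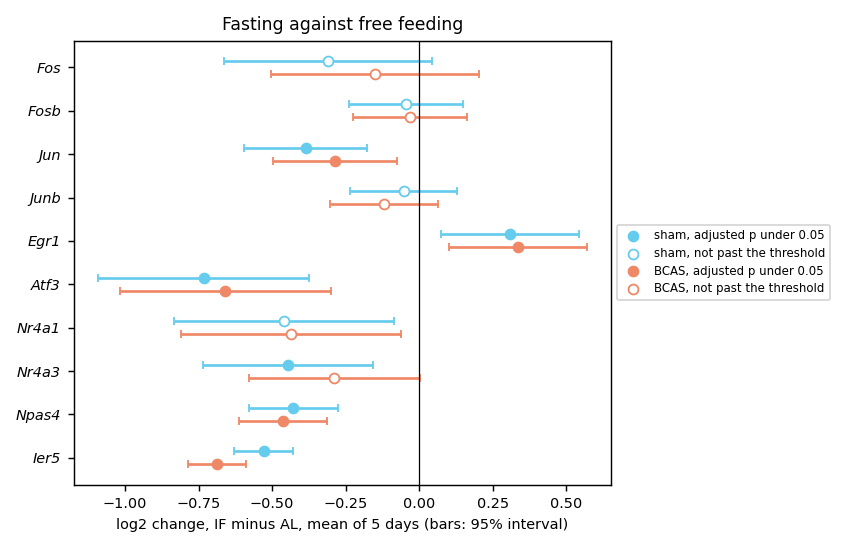
Log2 change of each gene under fasting (horizontal axis, IF minus AL, mean of 5 daily differences) with 95% intervals in sham and after BCAS, filled where the adjusted p was under 0.05. Ier5 lies at -0.53 and -0.69 with the shortest bars, and Egr1 alone lies to the right, at 0.31 and 0.34.

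Day by day, Ier5 was called on day 7 (-0.64; 9.05% of all genes called), day 14 (-0.78; 4.39%) and day 30 (-0.70; 4.82%) in sham, and on all 5 days after BCAS. The 5 BCAS values of Ier5 were -0.43, -0.80, -0.89, -0.66 and -0.66 in time order, where 4.37%, 2.25%, 5.67%, 0.802% and 1.35% of genes were called. The day 1 call of Ier5 was lost without BCAS AL day 1 replicate 2 or 3, or BCAS IF day 1 replicate 2 or 3 (-0.49 to -0.36). Npas4 was also called in sham on day 14 (-0.53, lost without 6 of the 8 single libraries, -0.65 to -0.44) and on day 30 (-0.62, lost without sham AL day 30 replicate 1). In sham on day 30, 5 of the 10 genes fell (Jun, Atf3, Nr4a1, Npas4 and Ier5), and 4 after BCAS on day 14 (Jun, Atf3, Npas4 and Ier5). Without sham AL day 30 replicate 1 the day 30 count was 2. In sham, 0 of the 10 passed on day 1 and on day 21 by limma, where 3.67% and 0.382% of genes did, with 1 of 10 on each day at an unadjusted p under 0.05 and 0 by limma-voom.

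Diet effects did not differ detectably between sham and BCAS. By the interaction of surgery and diet, 0 of the 10 passed on the mean of 5 days, where 0.0127% of genes did, with 1 (Ier5) at an unadjusted p under 0.05 and 0 by limma-voom. The extra change of Ier5 after BCAS was -0.16, with a 95% interval of -0.30 to -0.02 (unadjusted p = 0.0267, adjusted p = 0.999 by limma). On single days the interaction again gave 0 of 10 by limma and by limma-voom, with 1, 0, 2, 0 and 4 of 10 at an unadjusted p under 0.05 in time order. Of all genes, 0.0318% were called on day 7 and 0% on each other day.

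Other genes of the early response were counted by list, against 11.9% of all genes lower and 11.8% higher in sham, and 11.9% and 11.2% after BCAS. Among 12 other AP-1 genes, 5 fell and 1 rose under fasting in sham, led by Fosl2 (-0.47), a Fos-related subunit, and the small Maf factors Mafg (-0.15) and Maff (-0.24). After BCAS 3 fell and 0 rose, the same 3 named genes at -0.35, -0.18 and -0.21. Of 17 other early factors tested, 6 fell and 1 rose in sham, among them Klf4 (-0.39), a smooth muscle and endothelial regulator, the Egr co-repressor Nab1 (-0.18) and the remaining Nr4a receptor, Nr4a2 (-0.41). After BCAS 5 fell and 2 rose, with these 3 at -0.46, -0.18 and -0.42. The list medians were -0.06 and -0.08 for AP-1, and -0.13 and -0.07 for the other factors.

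Upstream, 17 kinases and factors were tested, of which 6 fell and 1 rose in sham and 5 fell and 1 rose after BCAS, where 23.7% and 23.1% of all genes were called in either direction. The cAMP-responsive factor Crem changed by -0.46 and -0.38, and the kinase Mapk3 by 0.15 in both. Creb1 (-0.15) was next by p in sham, and Hsf1 (-0.20), the heat shock factor, after BCAS. Of 14 feedback inhibitors 4 fell and 2 rose in each arm, with the RNA-decay factor Zfp36l1 at -0.36 and -0.35, Btg1 at -0.29 and -0.26 and the receptor inhibitor Errfi1 at -0.38 and -0.37. Of 13 early effector genes of the vessel wall 5 fell and 2 rose in sham, and 4 fell and 0 rose after BCAS. Thbs1, a matrix protein, changed by -0.82 and -0.84, and Hbegf, a growth factor, by -0.26 and -0.31. Adamts1, a matrix protease, was at -0.50 in sham, and the chemokine Cxcl1 at -0.69 after BCAS. The list medians in sham and after BCAS were -0.03 and -0.03 for the upstream genes, -0.08 and -0.11 for the inhibitors and -0.14 and -0.02 for the effectors.

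Heat shock genes moved with the diet as well. All 5 of a list of 5 (Hspa1a, Hspa1b, Dnajb1, Hsph1 and Hspa8) fell under fasting in both arms, with a median log2 change of -1.01 in sham and -1.09 after BCAS. Their summed level had group means of 451 to 793 FPKM in the 10 fed groups and 280 to 559 in the 10 fasted groups, and none of the 5 was at 0 in any library. With the summed heat shock level of each library as a covariate, only Ier5 of the 10 passed in either arm, at -0.39 in sham and -0.54 after BCAS, and Nr4a3 in sham stood at 0.44 in place of -0.45. The same covariate took the calls among all genes from 3719 to 129 in sham and from 3623 to 168 after BCAS. That level itself fell with the diet, so heat shock level and diet cannot be told apart here, for Ier5 or the other genes. The sum was mostly Hspa8, at a median of 397 FPKM, where the others of the list had medians of 10.8 to 20.8. Macrophage markers, a list that includes microglia, moved less. Of the 5, 2 (Cd163 and P2ry12) were higher under fasting in each arm, against 11.8% of all genes in sham and 11.2% after BCAS. The summed group means of this list were 39.0 to 54.9 FPKM in fed and 45.7 to 53.9 in fasted groups. None of the tissue markers of smooth muscle, endothelium or neurons was called. The part of macrophage markers in these results was not tested.

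Carotid stenosis changed few of these genes. On the mean of 5 days, 0 of the 10 passed under AL, where 0.987% of all genes did, and 0 under IF (0.758%). At an unadjusted p under 0.05, limma gave 1 (Nr4a3) under AL and 2 (Egr1 and Ier5) under IF, and limma-voom called 0 under each diet. The 95% intervals bound the mean change of Ier5 to -0.04 to 0.15 under AL and -0.20 to -0.01 under IF, and that of Jun to -0.28 to 0.14 and -0.18 to 0.24. They were wider for Fos, at -0.27 to 0.44 and -0.11 to 0.60, and for Nr4a1, at -0.25 to 0.50 and -0.23 to 0.52.

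On single days, stenosis had a call only under AL on day 30, for Jun and Nr4a3, 2 of 10 against 0.357% of all genes. Jun read 26.3, 30.9, 41.0 and 43.2 FPKM in sham and 14.9, 16.2, 18.4 and 19.02 after BCAS, and fell by 0.98 ± 0.23 (adjusted p = 0.0292). Nr4a3 read 4.64, 4.81, 7.26 and 15.2 FPKM in sham and 1.79, 1.801, 2.11 and 3.29 after BCAS, and fell by 1.35 ± 0.32 (adjusted p = 0.0292). In both genes each sham library was above each BCAS library, as it was for Atf3, Nr4a1 and Npas4, so 5 of 10 did not overlap against 7.14% of all genes. For those 3 the log2 changes were -1.29, -1.28 and -0.47, with adjusted p of 0.160, 0.202 and 0.267. The Jun call was lost without 6 of the 8 single libraries, all but sham AL day 30 replicates 2 and 3 (-1.11 to -0.88), and the Nr4a3 call without 5, namely sham AL day 30 replicates 1 and 2 and BCAS AL day 30 replicates 2, 3 and 4 (-1.52 to -1.02). Neither gene was called by limma-voom.

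The sham AL libraries of day 30 serve in this comparison and in that of the diets in sham on day 30, so both sets of changes share their controls. Side by side, the changes under stenosis in fed mice and under fasting in sham mice were -0.98 and -1.05 for Jun, -1.29 and -1.58 for Atf3, -1.28 and -1.43 for Nr4a1, -1.35 and -1.003 for Nr4a3, and -0.47 and -0.62 for Npas4. Of the other lists under stenosis on day 30, Mafk (-0.53) was the 1 called of 12 AP-1 genes and Thbs1 (-0.90) the 1 called of 13 effector genes, while 0 early factors, 0 upstream genes and 0 inhibitors were called by limma, with 3, 5 and 5 at an unadjusted p under 0.05. Of the 5 heat shock genes Dnajb1 (-1.06) and Hspa1a (-1.58) were called, and their summed group mean was 727 ± 210 FPKM (SD, n = 4) in sham and 540 ± 100 after BCAS. With that level as a covariate, neither Jun (-0.93) nor Nr4a3 (-0.88) passed. The level was itself lower after BCAS, so its part and that of stenosis cannot be told apart.

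On the other days under AL, 0 of 10 passed by limma or by limma-voom, with 2, 1, 3 and 4 at an unadjusted p under 0.05 on days 1, 7, 14 and 21, where 0.376%, 2.63%, 0.337% and 0% of all genes were called. Under IF it was 0 on every day by both, with 1 at an unadjusted p on day 1 (Fos) and 0 on the later days. Of all genes, 0.00637%, 0.153%, 0%, 0% and 0.0891% were called there in time order. Day 14 under AL had the largest rises, at 1.44 ± 0.39 for Atf3 (adjusted p = 0.0799) and 1.20 ± 0.41 for Nr4a1 (adjusted p = 0.210). Atf3 read 2.96, 5.70, 6.24 and 10.01 FPKM in sham AL on that day and 9.86, 11.1, 16.3 and 49.7 in BCAS AL, which overlapped by a small margin. Under AL, sham and BCAS libraries did not overlap for Nr4a3 and Ier5 on day 1 (10.6% of all genes), Npas4 on day 14 (6.41%) and Ier5 on day 21 (3.39%). Each of these was higher after BCAS. Under IF only Atf3 on day 7 did not overlap (6.58% of all genes), and it was lower after BCAS.

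**Figure D3:**
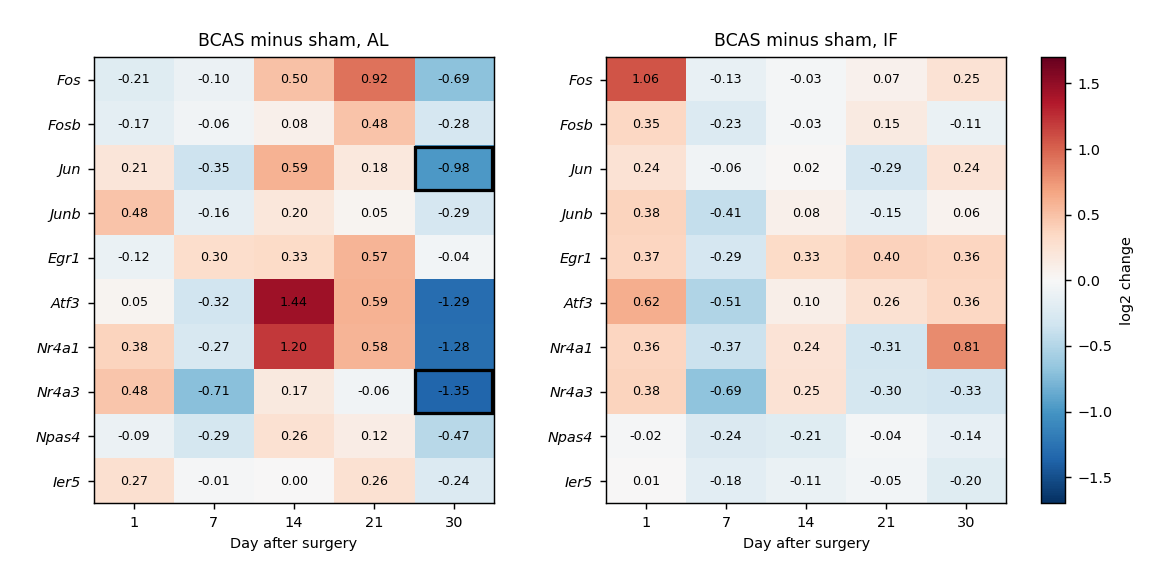
Log2 change of each gene after BCAS against sham (colour and printed value) by day after surgery, in fed mice at left and fasted mice at right, with black frames where the adjusted p was under 0.05. The framed cells are Jun (-0.98) and Nr4a3 (-1.35) in fed mice on day 30, and in fed mice Atf3 goes from 1.44 on day 14 to -1.29 on day 30.

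Whether the effect of stenosis differed between days was tested directly. Under AL it did for Jun (adjusted p = 0.0171) and Atf3 (adjusted p = 0.0190), 2 of 10 against 1.97% of all genes, and the count was 0 to 4 as single libraries were left out. In time order the changes under AL were 0.21, -0.35, 0.59, 0.18 and -0.98 for Jun and 0.05, -0.32, 1.44, 0.59 and -1.29 for Atf3. Nr4a1 and Nr4a3 were just outside the threshold, with adjusted p of 0.0518 and 0.0592. Under IF 0 of 10 passed, as did 0% of all genes, with 0 at an unadjusted p under 0.05 by limma and 0 calls by limma-voom.

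Days also differed within arms, without a trend common to all genes. In sham AL, Jun, Atf3, Nr4a1, Nr4a3 and Ier5 differed between days, 5 of 10 against 17.3% of all genes, with the highest means of all 5 on day 30 (35.4, 13.3, 41.4, 7.97 and 22.9 FPKM). The count was 3 to 6 as single libraries were left out. In sham IF 0 of 10 differed by limma and by limma-voom, against 1.88%, with 2 (Egr1 and Ier5) at an unadjusted p under 0.05. In BCAS AL, Atf3 and Npas4 differed (4.48% of all genes), both highest on day 14 at 21.8 and 3.97 FPKM. In BCAS IF, Junb and Ier5 differed (5.23%), with Junb highest on day 1 at 47.4 ± 17.5 FPKM and lowest on day 21 at 21.9 ± 5.43. The differences between these arms were not tested.

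Within groups, most of these genes varied more than others. The SD of log2(FPKM + 1) within groups was 0.59 for Nr4a1, 0.57 for Atf3 and 0.56 for Fos, at percentiles 96.9, 96.5 and 96.3 of all genes tested, where the median gene had 0.16. It was 0.46 for Nr4a3, 0.37 for Egr1, 0.33 for Jun, 0.30 for Fosb, 0.29 for Junb and 0.24 for Npas4. Ier5 was at the middle, with 0.16 and percentile 50.3. Against the 500 genes nearest in level, Nr4a1 was at percentile 99.6, Fos at 98.0 and Ier5 at 72.0, but the low Fosb at 36.4.

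**Figure D4:**
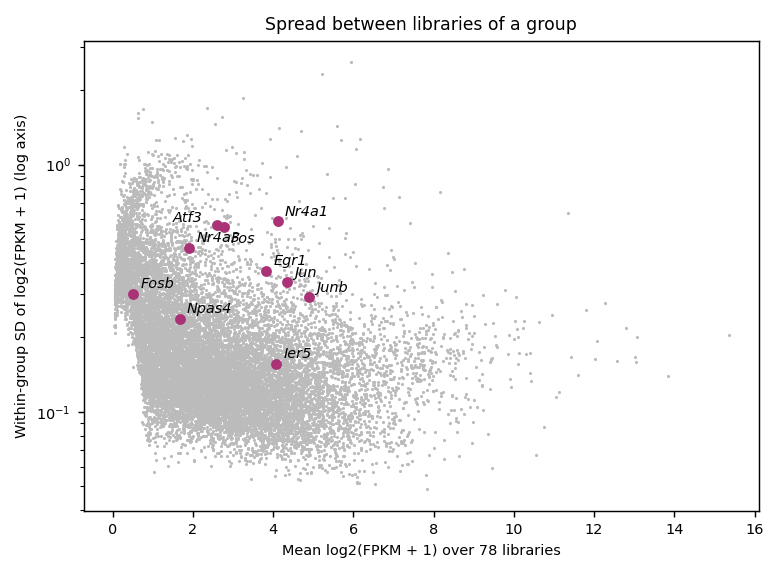
Within-group SD of log2(FPKM + 1) (log axis) against mean log2(FPKM + 1) over 78 libraries for all 15707 genes tested (grey) and the 10 early genes (named). Nr4a1, Atf3 and Fos, at 0.59, 0.57 and 0.56, lie at the upper edge for their level, and Ier5, at 0.16, lies inside the cloud.

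The variation within groups was shared by part of the genes. Each library's deviation from its group mean was taken for each gene, which removes the group differences, and libraries were permuted within groups for the p-values. Fos and Egr1 deviated together, with Pearson's r of 0.87 and Spearman's rho of 0.79 over 78 libraries (permutation p of 1e-05 each, the smallest that 100000 resamples can give, and adjusted p = 0.00106 and 0.000795 over a family of 159 relations). Without the 2 libraries farthest from the median deviation of Fos, r was 0.82. For Fos and Junb, r was 0.67 (permutation p = 2e-05, adjusted p = 0.00106) and rho 0.61 (permutation p = 1e-05, adjusted p = 0.000795), with r of 0.61 without the 2 farthest. Fos was more loosely related to Nr4a1, with r of 0.55 (permutation p = 0.00014, adjusted 0.00445), rho of 0.44 (0.00064, adjusted 0.0145) and r of 0.43 without the 2 farthest. For Fos and Atf3, r was 0.46 (permutation p = 0.00079, adjusted 0.0209) and rho 0.44 (0.00041, adjusted 0.0109). For Fos and Jun, r was 0.47 (permutation p = 0.00228, adjusted 0.0363), but rho of 0.34 did not pass (0.00969, adjusted 0.123). The r of Fos with Fosb (0.46) and with Nr4a3 (0.30) did not pass (permutation p = 0.0201 and 0.0206, adjusted 0.205 each). The r of Fos with Npas4 was 0.03 (permutation p = 0.833, adjusted p = 0.933, rho of 0.06), and with Ier5 0.09 (permutation p = 0.483, adjusted p = 0.857, rho of 0.13).

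Of the 45 pairs, r ran from -0.10 to 0.87 with a median of 0.33, and 12 pairs were above 0.5. Besides Fos with Egr1 and Junb, the close pairs were Jun with Nr4a1 (0.85), Atf3 with Nr4a1 (0.73), Jun with Atf3 (0.71) and Junb with Egr1 (0.65), given as descriptions. All points share a library, its depth and its tissue. Jun with Junb had only 0.20, and Nr4a1 with Nr4a3 0.17, though each pair belongs to a family of related proteins. In the printed windows, Jun has no TGACG and Nr4a1 has 4, the latter at a start inside the gene. Whether such letters relate to these deviations was not tested.

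**Figure D5:**
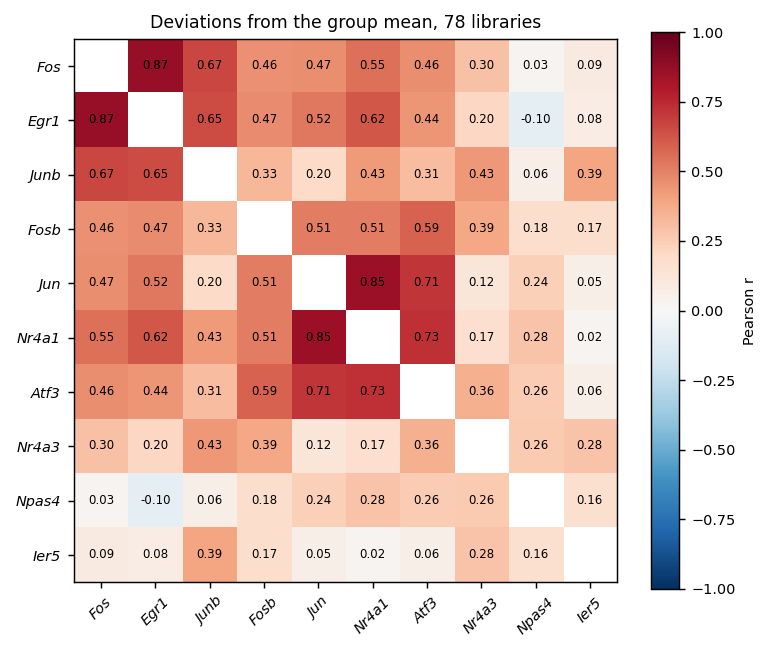
Pearson's r between the deviations of the 10 genes from their group means over 78 libraries, as colour and printed value. Fos, Egr1 and Junb (0.65 to 0.87) and Jun, Nr4a1 and Atf3 (0.71 to 0.85) form the dark blocks, and Npas4 and Ier5 are pale throughout, the highest value being 0.39 for Ier5 with Junb.

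Marker levels were compared with these deviations in the same family of 159 relations. The 2 farthest libraries were those farthest in the gene, so libraries extreme in a marker were not left out for that. Npas4 followed the summed smooth muscle markers (r of 0.60, permutation p = 3e-05, adjusted p = 0.00119, rho of 0.51, permutation p = 6e-05, adjusted p = 0.00318, and r of 0.49 without the 2 farthest libraries). With the neuronal markers its r was -0.03 (permutation p = 0.835, adjusted p = 0.933), with rho of -0.03. Nr4a3 followed the heat shock genes (r of 0.58, permutation p = 2e-05, adjusted p = 0.00106, rho of 0.49, permutation p = 0.00014, adjusted p = 0.00509, and r of 0.49 without the 2 farthest). Jun was lower where the mitochondrial share was higher (r of -0.42, permutation p = 0.00138, adjusted p = 0.0274, rho of -0.45, permutation p = 0.00016, adjusted p = 0.00509, and r of -0.42 without the 2 farthest). Junb was lower where macrophage markers were higher (r of -0.40, permutation p = 0.00123, adjusted p = 0.0274, rho of -0.40, permutation p = 0.00144, adjusted p = 0.0286, and r of -0.37 without the 2 farthest). Npas4 was also lower there (r of -0.40, permutation p = 0.00207, adjusted p = 0.0363), with rho of -0.32 (permutation p = 0.0107, adjusted p = 0.123) and r of -0.31 without the 2 farthest.

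In 8 of the 78 libraries, 7 or more of the 10 genes were at the highest level of their group. BCAS IF day 1 replicate 1 was the highest of its group for 9 of the 10 genes, all but Npas4. It read 37.8 FPKM for Fos beside 4.02, 5.37 and 7.52, 48.5 for Egr1 beside 11.9, 13.7 and 17.8, and 2.85 for Fosb beside 0.277, 0.282 and 0.289. Its Jun was at 37.0 FPKM beside 14.3, 14.98 and 19.1, whereas its Ier5 at 16.0 was close to 13.6, 14.3 and 15.8. Sham AL day 30 replicate 1 was the highest of its group for all 10 genes, among them Nr4a1 (71.4 FPKM), Atf3 (23.8) and Ier5 (29.3). BCAS IF day 21 replicate 3 and sham IF day 1 replicate 1 were the highest for 8 genes each. BCAS AL day 14 replicate 3, BCAS IF day 14 replicate 4, BCAS IF day 30 replicate 2 and sham AL day 21 replicate 4 were the highest for 7 each.

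Outside the 10 genes, those whose deviations were most like the mean of the 10 over the 78 libraries were Btg2 (r of 0.76), Dusp1 (0.75), Cyr61 (0.74), Adamts1 (0.71), Egr3 (0.70), Fosl2 (0.70), Zfp36 (0.65), Csrnp1 (0.64), Tubb6 (0.63) and Actg1 (0.61). Over the 20 group means they were Btg2 and Dusp1 (0.88 each), Nfkbiz (0.86), Fosl2 and Arl5b (0.85 each), Arid5a (0.85), Thbs1, Dnajb1 and Dnajb4 (0.84 each) and Gem (0.83). These are descriptions over points that share libraries. Of the 10 genes themselves, Nr4a1 was most like the mean of the other 9 within groups (0.73) and Ier5 and Npas4 least (0.21 and 0.22), while over group means Egr1 stood apart at -0.11 beside 0.38 to 0.87 for the others.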

How the data were processed

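RNA sequencing of cerebral arteries was used as 1 table of FPKM values that the authors deposited, with gene lengths, per the file headers. Per the labels' protocols, libraries were built from 2 ug of RNA. The submitters' processing notes name DESeq 1.10.1 but not its role. No aligner, counter or build is given in the sources used here. Positions are on GRCm38, because 98.3% of the identifiers found in GENCODE M21 have identical coordinates there. The depth came from the step of 1 fragment in FPKM times length, which left 100% of values under 1000 fragments whole within 0.05.

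Tests were run on log2(FPKM + 1), which understates changes of low genes, with limma 3.58.1 (trend, robust; R 4.3.3), in 1 model of 20 group means over 78 libraries. The 15707 genes that reached 1 FPKM in 3 or more libraries were tested. P-values are two-sided, adjusted by Benjamini-Hochberg over all genes, with a threshold of 0.05. Errors of log2 changes are SE. The 10 genes and the lists were chosen with earlier results of these data known. The 10 genes are named throughout, with up to 3 called genes per list, those of smallest p, and the 10 genes of highest likeness in each pattern. In simulated data, changes of 0.5 and 1 were recovered in 94% and 97% for the mean fasting effect in sham (10 false calls among 15707 genes). For BCAS under AL on day 30 the rates were 64% and 86% (9 false calls). The changed genes were drawn from all genes tested, whose median within-group SD was 0.16. Recovery is lower at a larger SD, and it was not measured separately for genes like Nr4a1, Atf3 and Fos (0.59, 0.57 and 0.56). Alternatives were another pseudocount, other filters, the compared groups alone, limma-voom on recovered fragments, limma without its options, quantile normalization, covariates, and leaving out libraries or day 7.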

Additional observations from a re-analysis of the deposited data

Results flagged for a closer look

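In 18 of 180 sets of 4 libraries, 1 library lay farther from the rest than Dixon's 95% limit. Chance alone gives about 5% for independent sets of normally distributed values. Here FPKM was used without logs and the sets of different genes share libraries, so the count is not a test of excess. BCAS IF day 1 replicate 1 did so for 4 genes, Fos (37.8 FPKM), Fosb (2.85), Egr1 (48.5) and Atf3 (11.04). BCAS IF day 21 replicate 3 did so for Fos (9.55 FPKM) and Junb (30.0), and sham IF day 30 replicate 4 for Jun (12.9, the lowest) and Nr4a3 (5.04).

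Other single high libraries were sham AL day 7 replicate 2 for Fos (15.9 FPKM), BCAS AL day 14 replicate 3 for Atf3 (49.7), sham IF day 21 replicate 3 for Atf3 (6.41), sham IF day 14 replicate 2 for Junb (34.2), sham IF day 1 replicate 4 for Npas4 (2.67), BCAS IF day 30 replicate 4 for Npas4 (2.54) and sham AL day 30 replicate 1 for Ier5 (29.3). Single low libraries were BCAS AL day 7 replicate 3 for Fos (4.29 FPKM), sham AL day 21 replicate 2 for Jun (18.1) and sham AL day 1 replicate 1 for Ier5 (15.6).

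The effect of BCAS in fed mice differed between days for Jun (adjusted p = 0.0171) and Atf3 (adjusted p = 0.0190) by limma's F test.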

How the results depend on the processing

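Of 29 called changes of single genes, 251 of 301 recomputations under other settings kept direction and call, 49 lost the call and 1 reversed, and 17 of the 29 changes kept the call without any 1 library. Counts of called genes among the 10 were affected as follows. With heat shock level as a covariate they became 1 for fasting in sham and 1 after BCAS on the mean of 5 days, 0 in sham on days 14 and 30, 0 and 1 after BCAS on days 1 and 14, 0 for stenosis under AL on day 30, 1 among days in sham AL and 0 for the stenosis effect between days under AL. There the mean fasting change of Nr4a3 in sham reversed to 0.44. With a fit of the compared groups alone, which has fewer libraries, they became 0, 1 and 3 for fasting in sham on days 7, 14 and 30, 0 and 2 after BCAS on days 1 and 14, 0 for stenosis under AL on day 30, 0, 4 and 1 among days in sham AL, BCAS AL and BCAS IF, and 1 for the stenosis effect between days. Without a filter on low values (38698 genes) they became 3 for the mean fasting effect after BCAS, 1 for fasting in sham on day 14, 3 among days in sham AL and 0 for stenosis under AL on day 30. Limma-voom gave 0 for the last and 1 for the stenosis effect between days. Fasting in sham on day 14 gave 1 with a pseudocount of 0.1 and with brain markers as a covariate. Without the 3 libraries rich in short genes, fasting after BCAS on day 1 gave 0 and days in sham AL 3. Why these counts moved was not tested. Without single libraries, the count ran from 3 to 6 for the mean fasting effect after BCAS (3 without BCAS AL day 21 replicate 2), 1 to 2 and 1 to 2 for fasting in sham on days 7 and 14, 2 to 6 on day 30, 0 to 1 after BCAS on day 1, 1 to 2 on day 21, 0 to 1 and 0 to 2 for stenosis under AL on days 14 and 30, 3 to 6 and 2 to 4 among days in sham AL and BCAS AL, and 0 to 4 for the stenosis effect between days. No paired analysis was possible because nothing in the labels pairs libraries of different groups, and the replicate numbers used here only name libraries. Low levels of Fosb and Npas4 rest on few fragments.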
